A study of Rattus norvegicus with 8 samples.

Results

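Glutathione is the main small thiol that protects cells against peroxides, and 9 genes of its synthesis, its cystine supply and the routes that compete for its precursor were followed across H9c2 cultures kept in space or on ground, with or without nanoceria. The set was Slc7a11, Gclc, Gclm, Gss, Gsr, Cbs, Cth, Csad and Abcc1. These were taken by gene symbol from the platform annotation, and all 9 were found among 15037 named genes, each through 1 probe set of the 23188 on the array. None of the 9 passed adjustment over all probe sets in any of 6 comparisons, so that every difference below is a measured value and not a called change.

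Cells make glutathione from cysteine, glutamate and glycine. The light chain of the cystine/glutamate exchanger, Slc7a11, brings in cystine, which is reduced to cysteine inside the cell. Cysteine can also be made from methionine through cystathionine beta-synthase (Cbs) and cystathionine gamma-lyase (Cth), the transsulfuration route. Glutamate-cysteine ligase, of the catalytic subunit Gclc and the modifier subunit Gclm, carries out the rate-limiting step, and glutathione synthetase (Gss) adds glycine. Glutathione reductase (Gsr) regenerates the reduced form with NADPH. Csad, cysteine sulfinic acid decarboxylase, lies on the route from cysteine to taurine, and Abcc1 exports glutathione conjugates and glutathione disulfide. The transcription factor NRF2 is known to drive Slc7a11, Gclc, Gclm, Gsr and Abcc1, while ATF4, the factor of the amino acid response, is known to drive Slc7a11, Cth and Cbs.

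H9c2 is an established myoblast line derived from embryonic rat heart, and each of the 8 samples had a rat Clariom S Pico array of its own. The 4 groups were untreated cells on ground (2 arrays, replicates 1 and 3), nanoceria-treated cells on ground (3 arrays), untreated cells in space (1 array) and nanoceria-treated cells in space (2 arrays). Nanoceria, cerium oxide nanoparticles coated with serum, was given at 100 µg/ml, and all cultures were kept in differentiation medium with 1% serum and with a supplement of insulin, transferrin and selenite. Space cultures were moved from a pouch at 27 °C to a 37 °C incubator aboard the station on day 7 and fixed on day 10, and ground cultures were run afterwards with the temperatures logged in flight, so gravity and culture run cannot be told apart. The ground repeat used 6 culture units, 3 per treatment, but the labels do not tie each sample to a unit or name independent cell preparations, and the spread behind every p-value is that between these samples, which may be technical. Levels are log2 intensity of a probe set, and differences are given on the log2 scale with their standard error (SE), where a log2 difference of 1 is a doubling of intensity.

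Array medians ran from 107 to 117 in intensity, and the number of arrays limited the precision. No background measure was at hand, so whether a dim probe set lay above background is unknown. Over all probe sets, the root mean square log2 difference between arrays was 0.29 for each of the 3 pairs of space arrays and 0.39 to 0.64 for the 10 pairs of ground arrays. Muscle markers were present in part: Tnnt2, Acta1, Cdh15, Myog and Myh3 had mean levels above at least 73.5% of probe sets, while the myoblast factor Myf5 lay at percentile 7.6 and the receptor subunit gene Chrna1 at 27.0. Markers of endothelium (Pecam1, Cdh5) and leukocytes (Ptprc, Itgam) and the epithelial markers Epcam and Cdh1 lay between percentiles 3.7 and 17.2, but the keratin gene Krt8 at percentile 97.0, the macrophage marker Cd68 at 56.6 and the endothelial marker Kdr at 37.3. The fibroblast marker Lum lay at percentile 79.7 and Pdgfra at 31.7. Ground untreated replicate 3 had the lowest mean over the 9 measured muscle markers, 6.87, against 7.67 in ground untreated replicate 1, 8.08 to 8.41 in treated ground cells and 7.69 to 8.10 in space. In bulk samples fewer cells of a type and less RNA per cell cannot be told apart.

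The stretch before the start of Gclm is shown because it was the only member window that held the core of the antioxidant response element, the site that NRF2 and small MAF proteins bind. Windows of 250 bases before to 50 after the start were at hand for 8 of the 9 genes (RefSeq, build GRCr8), and not for Gsr. They were searched on both strands for TGACNNNGC, the element's core, and for TGATGNAA, the C/EBP-ATF response element through which ATF4 acts. The core was found in 1 of the 8 windows and in 12.2% of 27457 gene windows, and the C/EBP-ATF element in 0 of the 8 and in 3.82% of all. The capitals mark the core, which lies on the opposite strand, from 172 to 164 bases before the start (plus strand, chr2:213031885-213032134, the 250 bases before the start).
Gclm: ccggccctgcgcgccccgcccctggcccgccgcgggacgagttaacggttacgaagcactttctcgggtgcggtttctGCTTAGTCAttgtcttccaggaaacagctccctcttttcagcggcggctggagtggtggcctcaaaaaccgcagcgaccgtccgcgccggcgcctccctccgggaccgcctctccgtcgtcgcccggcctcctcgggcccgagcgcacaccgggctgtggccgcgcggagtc
Of these bases 70.4% were G or C, against a median of 52.0% over all windows. A match is a string of letters and not a measured site, and no match says only that these letters are not in the window.

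Within the ground cultures, nanoceria was compared with no treatment to ask how the particles, studied as scavengers of reactive oxygen, move the glutathione genes at normal gravity. Slc7a11, Gclm, Gclc, Abcc1 and Csad lay lower in treated cells, by 1.48 to 2.34 times, and Cth lay higher by 1.72 times. These were also the 6 genes whose treated and untreated ground arrays did not overlap: 5 were lower in every treated array, against 12% of all probe sets, and 1 was higher in every treated array, against 14.3%. The same 5 had an unadjusted p below 0.05 in the lower direction, where 6.57% of all probe sets did, and Cth in the higher direction, where 4.42% did. Of the 5, Slc7a11 (limma's unadjusted p = 0.0449), Abcc1 (0.0452) and Gclc (0.0472) lay close to that limit. The spread in this fit was shared by all 4 groups, space arrays included. With limma and Benjamini-Hochberg adjustment 0 of the 9 passed, as did 0% of all 23188 probe sets. By sign alone, 6 of the 9 lay below 0 (44.5% of all probe sets) and 3 above (55.5%). The median difference of the 9 was -0.56, against 0.038 over all probe sets, but -0.19 without ground untreated replicate 3.

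**Figure D1:**
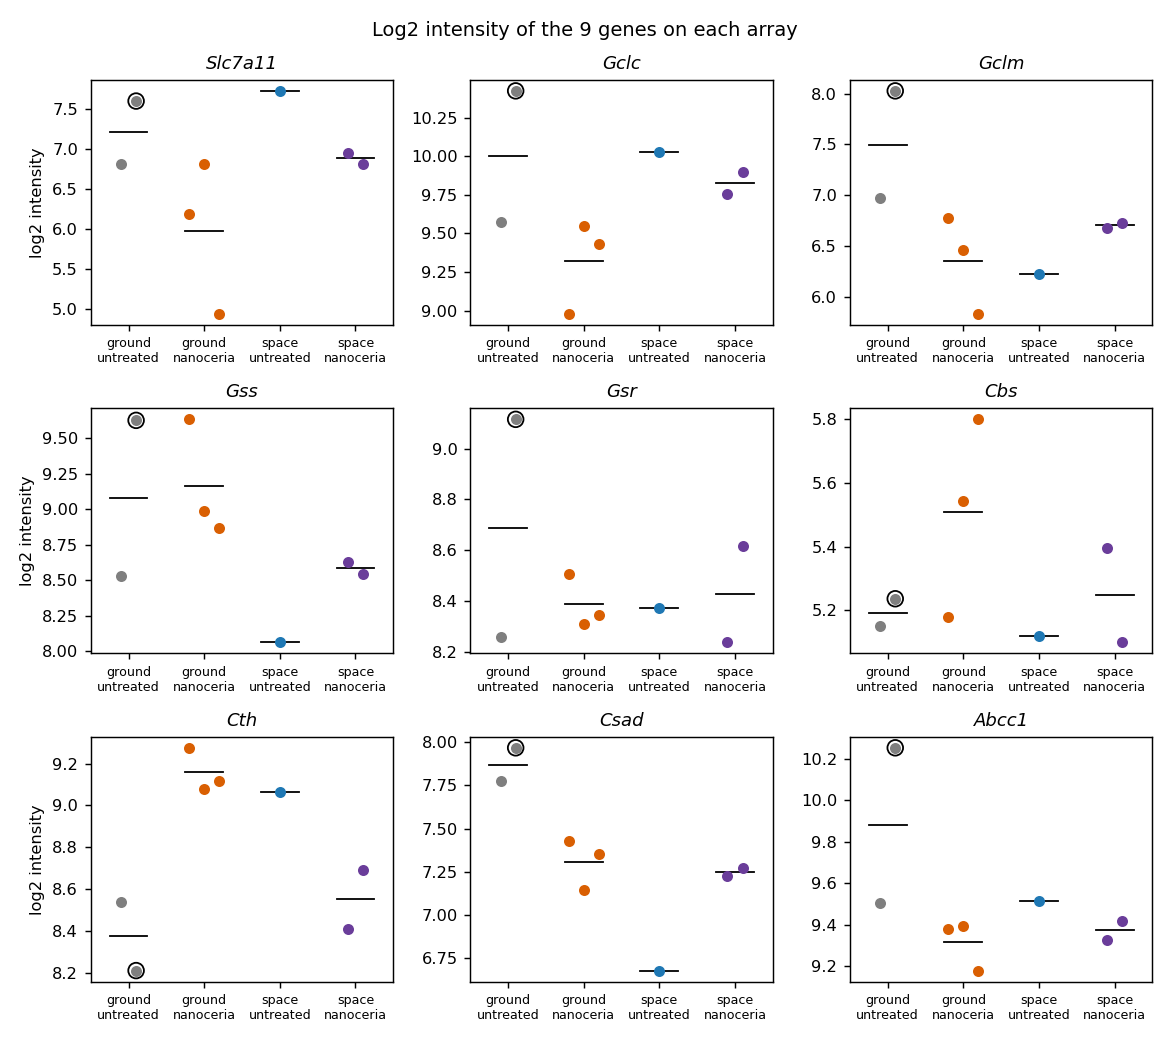
Log2 intensity (vertical axis) of the 9 genes on each of the 8 arrays, by group (horizontal axis). Each point is 1 array, the line is the group mean, and a ring marks ground untreated replicate 3, which was the highest of all 8 arrays for Gclc, Gclm, Gsr, Csad and Abcc1 and the lowest for Cth.

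For the exchanger gene Slc7a11 the ground levels were 6.81 and 7.59 in untreated cells and 6.18, 6.80 and 4.94 in treated replicates 1, 2 and 3. The groups barely separated, since treated replicate 2 and untreated replicate 1 lay within 0.010 of each other. Treated replicate 3 was far below every other array. Its level of 4.94 was below the mean level of Cbs (5.32, percentile 27.1 of probe sets), and whether it lay above background is unknown. The difference was -1.23 ± 0.51 (SE) (adjusted p = 0.447), the widest spread and the largest difference of the 9, and -0.71 without ground nanoceria replicate 3.

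The 2 subunits of glutamate-cysteine ligase were both lower with nanoceria on ground but not on the same arrays. Gclc levels were 9.57 and 10.42 untreated and 8.98, 9.55 and 9.43 treated, so that treated replicate 1 was the lowest of all 8 arrays. Gclm levels were 6.97 and 8.03 untreated and 6.78, 6.46 and 5.83 treated, with treated replicate 1 the highest of the treated arrays and replicate 3 the lowest of all 8. The catalytic subunit differed by -0.68 ± 0.29 (SE) (adjusted p = 0.451) and the modifier subunit by -1.14 ± 0.37 (SE) (adjusted p = 0.353). Gclm is the gene whose upstream stretch holds the core printed above, and whether the core bears on this difference was not tested.

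Synthetase and reductase genes did not separate the groups. Gss stood at 8.53 and 9.63 untreated and at 9.63, 8.99 and 8.87 treated, a difference of 0.086 (95% interval -0.75 to 0.92). Gsr stood at 8.26 and 9.11 untreated and at 8.51, 8.31 and 8.35 treated, a difference of -0.30 (95% interval -0.92 to 0.32). In both genes the 2 untreated arrays lay on opposite sides of the treated mean, and both intervals include a difference of 0.

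In transsulfuration the signs were opposite to that of the exchanger. Cth, which releases cysteine from cystathionine, had levels of 8.54 and 8.21 in untreated cells and 9.28, 9.08 and 9.12 in treated cells. All treated arrays were higher, by more than the spread within either group, and the difference was 0.78 ± 0.18 (SE) with adjusted p = 0.23 in limma after Benjamini-Hochberg adjustment, the smallest of the 9. Cbs, the enzyme one step before, differed by 0.31 ± 0.22 (SE) (adjusted p = 0.627), with 5.15 and 5.24 untreated and 5.18, 5.54 and 5.80 treated. Its treated and untreated arrays overlapped, and its mean level over the 8 arrays lay at percentile 27.1 of probe sets.

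Both outlet genes were lower with nanoceria on ground. Csad, on the way from cysteine to taurine, had tight groups, with 7.77 and 7.97 untreated against 7.43, 7.15 and 7.35 treated, and a difference of -0.56 ± 0.16 (SE) (adjusted p = 0.303). Abcc1, the exporter, had 9.51 and 10.25 untreated against 9.38, 9.40 and 9.18 treated, a difference of -0.56 ± 0.23 (SE) (adjusted p = 0.447). For Abcc1 the untreated arrays differed from each other by more than untreated replicate 1 did from any treated array.

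The size of most ground differences turned on ground untreated replicate 3. That array held the highest of all 8 levels for 5 of the 9 genes, where 12.9% of all probe sets did so, and the lowest for Cth, where 16.5% of probe sets did. Without it, the difference was -0.84 for Slc7a11, -0.61 for Gclm, -0.26 for Gclc and -0.19 for Abcc1. Without ground untreated replicate 1, the same genes lay at -1.62, -1.67, -1.10 and -0.94. Gss and Gsr changed sign between the 2 untreated arrays, at 0.63 and 0.13 without replicate 3 and -0.46 and -0.73 without replicate 1. Cth and Csad moved least among the 6 non-overlapping genes, to 0.62 and -0.47 without replicate 3 and to 0.95 and -0.66 without replicate 1. Ground untreated replicate 3 was also the array with the lowest muscle marker mean, 6.87. Untreated replicate 1, at 7.67, lay below all treated ground arrays too (8.08 to 8.41). Leaving out replicate 3 thus does not remove the marker difference, and its part in these values was not tested.

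**Figure D2:**
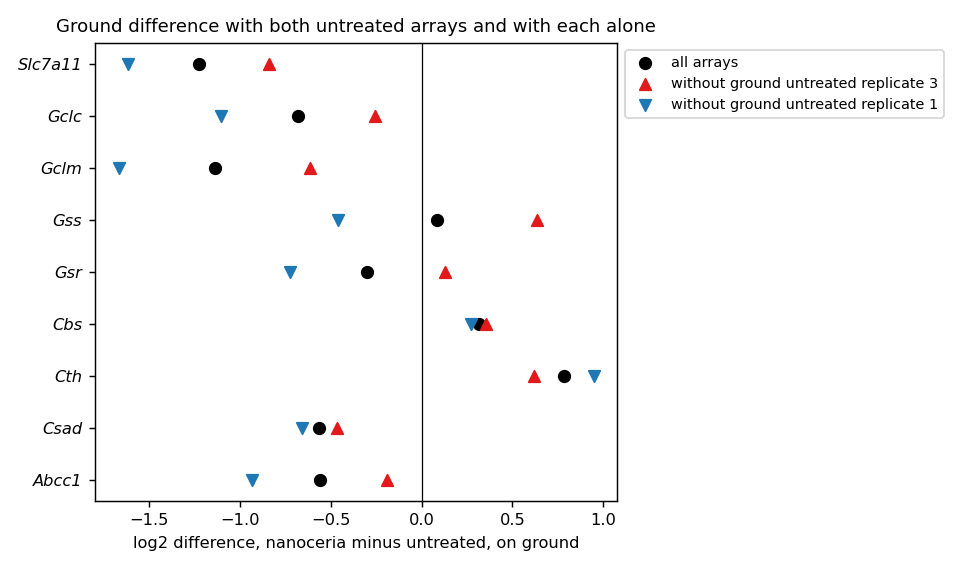
Log2 difference between nanoceria-treated and untreated cells on ground (horizontal axis) for the 9 genes (vertical axis), with both untreated arrays (black circles), without ground untreated replicate 3 (red triangles up) and without replicate 1 (blue triangles down). Gss and Gsr cross 0 between the settings, while Cth stays between 0.62 and 0.95 and Csad between -0.66 and -0.47.

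In space the same treatment contrast rested on 2 treated arrays and 1 untreated array. The spread of that single array was taken to be that of the remaining groups, most of whose arrays were on ground. Slc7a11 was 7.72 untreated, the highest of all 8 arrays, and 6.94 and 6.81 treated, a difference of -0.84 ± 0.68 (SE) that had the same sign as on ground. Gclc was 10.02 untreated and 9.76 and 9.89 treated (-0.20), and Abcc1 was 9.52 untreated and 9.33 and 9.42 treated (-0.14). All 3 genes were thus lower in both treated arrays, each by less than its standard error or little more. Counting Cth, 4 of the 9 genes were lower in both treated arrays and 3 higher, against 31.5% and 34.4% of all probe sets. With limma and Benjamini-Hochberg adjustment, 0 of the 9 and 0% of all probe sets passed, and at an unadjusted p below 0.05 1 gene did in the higher direction (Csad), where 0.707% of probe sets did, and 0 in the lower, where 0.763% did.

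Gclm, Cth and Csad ran in opposite directions in the 2 regimes. Gclm was 6.22 in untreated space cells and 6.68 and 6.73 in treated ones, higher with nanoceria by 0.48 ± 0.49 (SE) where it was lower on ground. Cth was 9.06 untreated and 8.41 and 8.69 treated, a difference of -0.51 ± 0.24 (SE) where it was higher on ground. Csad was 6.68 untreated, the lowest of all 8 arrays, and 7.22 and 7.27 treated. It was higher by 0.57 ± 0.22 (SE) where it was lower on ground. The 95% intervals in space included 0 for Gclm (-0.67 to 1.64) and Cth (-1.07 to 0.052), but not for Csad (0.063 to 1.08). For all 3 the arrays of the compared groups did not overlap in either regime, a crossing that 5.4% of all probe sets showed. In space alone, 34.4% of all probe sets lay higher in both treated arrays and 31.5% lower.

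The arrays that showed this crossing also gave the interaction, the treatment difference in space minus that on ground. The interaction tested whether both differences were equal, not whether their signs were opposite. It was -1.30 ± 0.30 (SE) for Cth, 1.13 ± 0.27 (SE) for Csad and 1.62 ± 0.61 (SE) for Gclm, each with adjusted p = 1 in limma after Benjamini-Hochberg adjustment. Ordered by p, Cth was number 11 and Csad number 17 of the 23188 probe sets. An unadjusted p below 0.05 held for 1.44% of probe sets with a positive interaction, among them Gclm and Csad, and for 0.906% with a negative one, among them Cth. The other 6 genes had interactions of -0.18 to 0.48. In the 7 fits that left out 1 other array, Cth ranged from -1.46 to -1.13, Csad from 1.04 to 1.23 and Gclm from 1.10 to 2.15, whereas the single untreated space array cannot be left out of this contrast. On simulated data with the same group sizes and independent normal noise, 35% of 4-fold interactions were recovered and 0% of 2-fold ones.

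**Figure D3:**
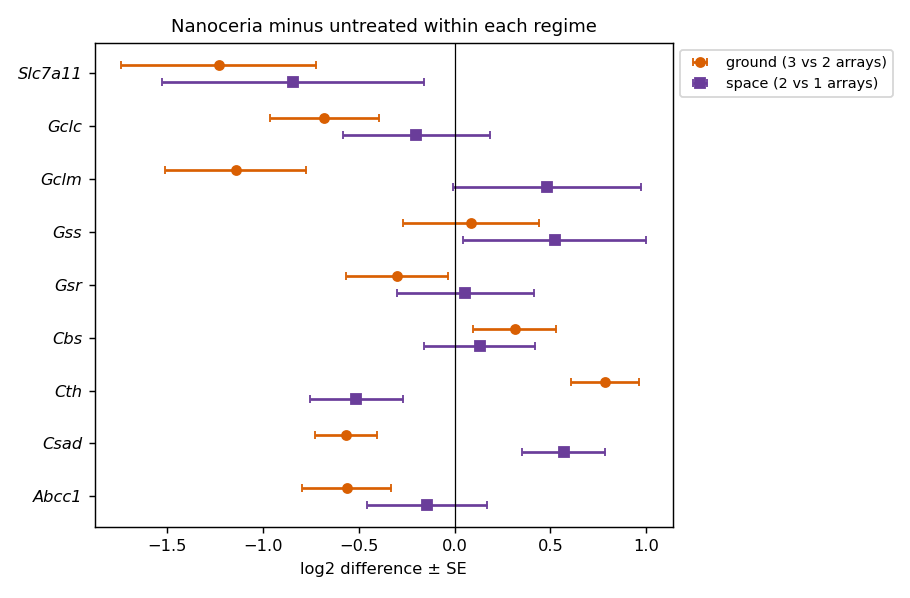
Log2 difference between nanoceria-treated and untreated cells (horizontal axis, with bars of 1 SE) for the 9 genes (vertical axis), on ground (orange circles) and in space (purple squares). Gclm, Cth and Csad lie on opposite sides of 0 in the 2 regimes, while Slc7a11, at -1.23 and -0.84, lies below 0 in both.

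Fitted as 1 effect over both regimes, nanoceria gave Slc7a11 the largest difference of the 9, -1.09 ± 0.39 (SE) or 2.13 times lower (adjusted p = 0.46), and from -1.32 to -0.76 over the fits with 1 array left out. It was the only 1 of the 9 with an unadjusted p below 0.05 in the lower direction, against 5.86% of all probe sets, and 0 were so in the higher direction, against 3.77%. Abcc1 was the only gene of the 9 whose 5 treated arrays, 9.18 to 9.42, all lay below the 3 untreated arrays, 9.51 to 10.25, where 2.28% of probe sets did so, and 0 lay above them on all arrays, where 2.47% did. Its difference was -0.41 ± 0.19 (SE) (adjusted p = 0.528), and -0.17 without ground untreated replicate 3. Cth and Csad, whose signs differed by regime, lay at 0.32 and -0.16 in this fit. The median of the 9 was -0.17, against 0.033 over all probe sets, but -0.56 without space untreated replicate 1, -0.36 without ground untreated replicate 1 and 0.021 without ground untreated replicate 3. Without that last array Gclc lay at -0.23 and Gclm at -0.10, against -0.51 and -0.56 with all arrays. With limma and Benjamini-Hochberg adjustment 0 of the 9 passed, and 0% of all probe sets.

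The gravity regime was followed by setting all space arrays against all ground arrays, with treatment in the fit. The ligase catalytic subunit and the exchanger lay higher in space, Slc7a11 by 0.77 ± 0.39 (SE) and Gclc by 0.33 ± 0.23 (SE), while the other 7 genes lay lower, where 58.7% of all probe sets did and 41.3% lay higher. Gss had the largest difference below 0, at -0.73 ± 0.28 (SE) or 1.66 times (adjusted p = 0.479), and Csad came next at -0.47 ± 0.22 (SE) (adjusted p = 0.553). The Csad difference was -0.061 without space untreated replicate 1, and that of Slc7a11 was 0.44 without ground nanoceria replicate 3. Gss was the only 1 of the 9 with an unadjusted p below 0.05 in the lower direction (4.26% of probe sets), and 0 had one in the higher direction (5.3%). By array, Gss was 8.06, 8.63 and 8.54 in space and 8.53 to 9.63 on ground. Ground untreated replicate 1 lay within the space range for Gss, and the difference was -0.87 to -0.54 over the fits with 1 array left out. Of the 9 genes 0 separated space from ground on all arrays, against 3.14% of probe sets in the lower and 1.97% in the higher direction. The median of the 9 was -0.14, against -0.044 over all probe sets, and its sign turned without space untreated replicate 1 (0.039) or without ground untreated replicate 3 (0.026). With limma and Benjamini-Hochberg adjustment 0 of the 9 passed, and 0% of all probe sets.

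Among treated cells alone, which leaves out the untreated arrays, 2 space arrays were set against 3 ground arrays. Cth was lower in both space arrays, 8.41 and 8.69 against 9.08 to 9.28, a difference of -0.61 ± 0.18 (SE) (adjusted p = 0.455 in limma). Gss was lower too, at -0.58 ± 0.36 (SE), and Slc7a11 and Gclc were higher in both space arrays, by 0.90 ± 0.51 (SE) and 0.51 ± 0.29 (SE). These 4 did not overlap between regimes, with 2 in each direction, against 17.6% of probe sets lower and 13.6% higher. Cth alone had an unadjusted p below 0.05, in the lower direction, where 3.39% of probe sets did (5.02% in the higher), and 0 of the 9 or 0% of all passed adjustment. Slc7a11 lay at 0.39 without ground nanoceria replicate 3, the array with the lowest level of this gene. Gss lay at -0.34 and Gclc at 0.34 without ground nanoceria replicate 1, and Gclm at 0.087 without replicate 3. Csad differed by -0.061 (95% interval -0.44 to 0.32), Abcc1 by 0.055 (-0.49 to 0.60) and Gsr by 0.039 (-0.58 to 0.66). For Gclm the values were 0.35 in treated cells and -0.23 over both treatments, with opposite signs.

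**Figure D4:**
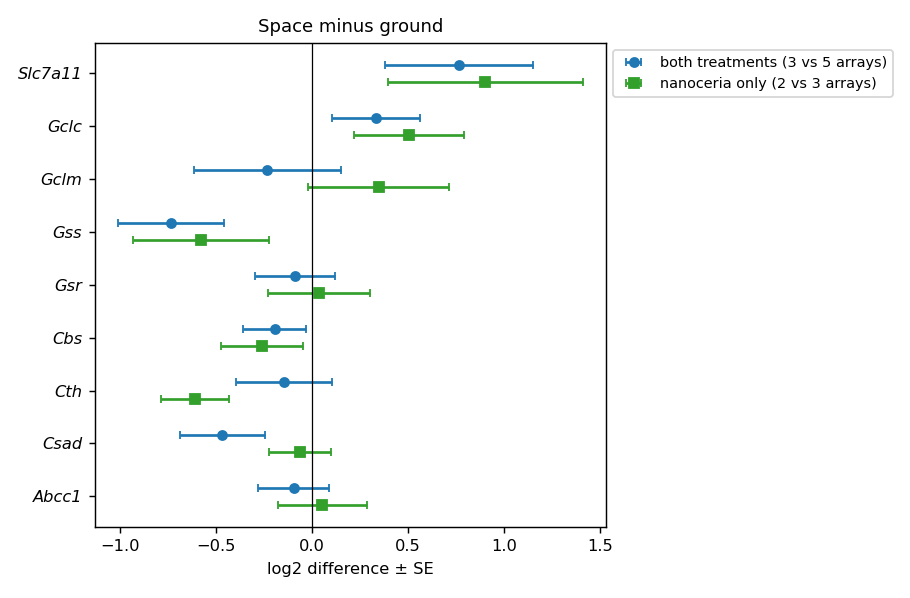
Log2 difference between space and ground (horizontal axis, with bars of 1 SE) for the 9 genes (vertical axis), over both treatments (blue circles) and in nanoceria-treated cells (green squares). Slc7a11 and Gclc lie above 0 and Gss, Cbs, Cth and Csad below 0 in both, while Gclm, Gsr and Abcc1 change sign.

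Ordered by level, Slc7a11 ran from ground nanoceria (5.97 ± 0.95 (SD, n = 3)) through space nanoceria (6.88 ± 0.094 (SD, n = 2)) and ground untreated (7.20 ± 0.55 (SD, n = 2)) to the space untreated array (7.72), and the middle 2 groups did not differ beyond their spread. Gclm ran from space untreated (6.22) through ground nanoceria (6.36 ± 0.48 (SD, n = 3)) and space nanoceria (6.71 ± 0.035 (SD, n = 2)) to ground untreated (7.50 ± 0.75 (SD, n = 2)), and the first 3 lay within the spread of ground nanoceria. Gclc ran from ground nanoceria (9.32 ± 0.30 (SD, n = 3)) through space nanoceria (9.83 ± 0.10 (SD, n = 2)) to ground untreated (10.00 ± 0.60 (SD, n = 2)) and space untreated (10.02), and the upper 3 lay within the spread of ground untreated cells. For Cth the order was ground untreated (8.37 ± 0.23 (SD, n = 2)), space nanoceria (8.55 ± 0.20 (SD, n = 2)), space untreated (9.06) and ground nanoceria (9.16 ± 0.10 (SD, n = 3)), with both neighbouring pairs at the ends within their spread. For Csad it was space untreated (6.68), space nanoceria (7.25 ± 0.033 (SD, n = 2)), ground nanoceria (7.31 ± 0.14 (SD, n = 3)) and ground untreated (7.87 ± 0.14 (SD, n = 2)), where the middle pair lay within its spread. Cth and Csad thus stood at opposite ends in the same cultures, with ground untreated cells lowest for Cth and highest for Csad.

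Genes around these routes were taken from 8 lists of 94 genes in all, 83 with a named probe set and 11 without. With limma and Benjamini-Hochberg adjustment 0 of the 83 passed in any of the 6 comparisons. On ground with nanoceria, 3 had an unadjusted p below 0.05 in each direction, or 3.61% against 4.42% higher and 6.57% lower among all probe sets, and the median of the 83 was 0.060. For space against ground, 1 was higher and 5 lower, or 1.20% and 6.02%, against 5.3% and 4.26% of all probe sets, with a median of -0.086. All probe sets had medians of 0.038 and -0.044 in these comparisons.

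Among regulators of the 9 genes, 2 of 13 had an unadjusted p below 0.05 for space against ground, both lower in space. Of all probe sets 4.26% were so in the lower and 5.3% in the higher direction. For nanoceria on ground 0 of the 13 had one, against 6.57% of all probe sets lower and 4.42% higher. Keap1, the adaptor that targets NRF2 for degradation, was 6.79, 6.95 and 7.21 in space, below all 5 ground arrays at 7.70 to 8.55. Of all probe sets 3.14% separated in this direction. Keap1 was named for a small p in its list, which favours such a separation. Its difference was -0.99 ± 0.19 (SE) or 1.98 times lower, and limma's adjusted p = 0.329. Sqstm1, which encodes the autophagy receptor p62 that binds KEAP1, differed by -0.57 ± 0.24 (SE) (adjusted p = 0.503), with overlapping arrays, and by -0.32 without space untreated replicate 1. On ground, the NRF2 partner gene Mafg differed by -0.28 ± 0.15 (SE) with nanoceria and Myc by 0.77 ± 0.44 (SE), the latter -0.052 without ground untreated replicate 1 and 1.59 without replicate 3. The levels of the NRF2 gene Nfe2l2 and of Atf4 differed by -0.38 and 0.043 with nanoceria on ground and by 0.26 and 0.025 between space and ground, named here after their values were seen.

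In the methionine cycle list, the methionine adenosyltransferase gene Mat1a lay lower in space, at 7.23, 7.15 and 7.13 against 7.53 to 8.34 on ground. The arrays did not overlap, as for 3.14% of all probe sets in this direction. The difference was -0.82 ± 0.17 (SE) (limma's adjusted p = 0.334). Mat1a was named, like Keap1, for a small p in its list. On ground it was higher with nanoceria by 0.54 ± 0.18 (SE), and Ahcyl2, a relative of the enzyme that hydrolyses S-adenosylhomocysteine, was lower, at -0.57 ± 0.18 (SE). Bhmt, which remethylates homocysteine, differed by -0.34 ± 0.14 (SE) between space and ground and by -0.22 without space untreated replicate 1. At an unadjusted p below 0.05, 1 of the 11 genes measured was higher and 2 lower with nanoceria on ground. Of all probe sets 4.42% were higher and 6.57% lower. For space against ground 0 of the 11 were higher and 2 lower, against 5.3% and 4.26% of all probe sets.

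**Figure D5:**
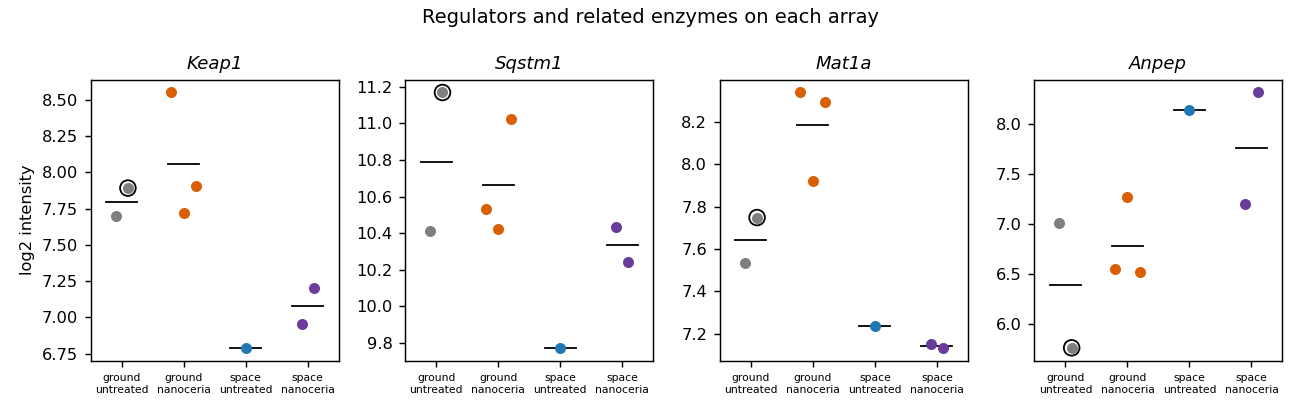
Log2 intensity (vertical axis) of Keap1, Sqstm1, Mat1a and Anpep on each of the 8 arrays, by group (horizontal axis), with the group mean as a line and a ring around ground untreated replicate 3. All 3 space arrays lie below all 5 ground arrays for Keap1 and Mat1a, as for 3.14% of all probe sets, and Sqstm1 overlaps.

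Enzymes that break glutathione down included the gene with the largest space difference of all 8 lists. Anpep, aminopeptidase N, which can cleave cysteinylglycine outside the cell, was 8.14, 7.20 and 8.32 in space and 5.76 to 7.27 on ground, a difference of 1.26 ± 0.37 (SE) or 2.4 times (adjusted p = 0.398). The lowest space array lay just inside the ground range. Ggt5, a gamma-glutamyltransferase, differed by -0.31 ± 0.11 (SE). On ground with nanoceria, the dipeptidase gene Cndp2 lay at 0.67 ± 0.29 (SE) and Chac2, a cytosolic gamma-glutamylcyclotransferase that degrades glutathione, at -0.64 ± 0.28 (SE). Cndp2 lay at 0.40 without ground nanoceria replicate 1 and Chac2 at -0.36 without ground untreated replicate 1. At an unadjusted p below 0.05, 1 of these 12 genes was higher and 1 lower for space against ground. Of all probe sets 5.3% were higher and 4.26% lower. With nanoceria on ground 0 of the 12 passed that limit, against 4.42% of all probe sets higher and 6.57% lower.

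Cysteine breakdown genes measured beside Csad had differences above 0 with nanoceria on ground for 8 of 10, where 55.5% of all probe sets did, with a list median of 0.20 against 0.038 over all probe sets. Mpst, mercaptopyruvate sulfurtransferase, lay at 0.59 ± 0.23 (SE) and the taurine transporter gene Slc6a6 at 0.69 ± 0.36 (SE). Slc6a6 lay at 0.18 without ground untreated replicate 1, 1.21 without replicate 3 and 0.44 without ground nanoceria replicate 2. Between space and ground 9 of the 10 were below 0, where 58.7% of probe sets were, with Suox, sulfite oxidase, at -0.48 ± 0.23 (SE) and Mpst at -0.39 ± 0.19 (SE). Suox lay at -0.25 without space nanoceria replicate 2 and -0.74 without replicate 1, and Mpst at -0.25 without replicate 1. At an unadjusted p below 0.05, 1 was higher with nanoceria on ground (Mpst) and 0 lower, against 4.42% and 6.57% of all probe sets. For space against ground 0 differed, where 5.3% of all probe sets were higher and 4.26% lower.

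Transporters of cystine, cysteine and glutamate ranged from -0.54 to 0.48 with nanoceria on ground over 12 genes, with 0 at an unadjusted p below 0.05. Of all probe sets 4.42% were higher and 6.57% lower at that limit. Slc7a8, a neutral amino acid transporter (mean level at percentile 30.0), lay at -0.54 ± 0.23 (SE) and Slc38a1, a glutamine transporter, at 0.48 ± 0.26 (SE). Without ground untreated replicate 3 they lay at -0.15 and 0.22, and without replicate 1 at -0.94 and 0.73. Slc3a2, the heavy chain that pairs with Slc7a11, differed by -0.016 with nanoceria on ground and by -0.10 between space and ground (named after its values were seen), against -1.23 and 0.77 for the light chain. Between space and ground, the cysteine and glutamate transporter gene Slc1a1 (mean level at percentile 37.5) differed by -0.35 ± 0.15 (SE). For the cystine transporter gene Slc7a9 that difference was -0.43 ± 0.20 (SE).

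NADPH, the reductant of glutathione reductase, is supplied by enzymes of which Idh1 and Me1 lay lowest with nanoceria on ground, at -0.83 ± 0.28 (SE) and -0.43 ± 0.19 (SE). Idh1 was 10.71 and 11.60 untreated and 10.13, 10.28 and 10.58 treated, and its difference was -0.38 without ground untreated replicate 3 and -1.27 without replicate 1. Me1 lay at -0.26 without replicate 3. With nanoceria on ground, Idh1 alone of the 8 genes had an unadjusted p below 0.05, in the lower direction (6.57% of all probe sets). For space against ground 0 of the 8 had one, against 4.26% of all probe sets lower and 5.3% higher. Taldo1 and Pgls, of the pentose phosphate pathway, differed by -0.60 ± 0.39 (SE) and -0.14 ± 0.11 (SE) between space and ground. Taldo1 lay at -0.30 without ground untreated replicate 3 and Pgls at -0.21 without space untreated replicate 1.

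Carriers and exporters other than Abcc1 ranged from -0.74 to 0.58 with nanoceria on ground over 10 genes. The mitochondrial dicarboxylate carrier gene Slc25a10 lay at 0.58 ± 0.19 (SE) and the exporter gene Abcc5 at -0.39 ± 0.17 (SE), while Abcc10 and Slc25a39, which is required for glutathione import into mitochondria, differed by -0.20 ± 0.13 (SE) and -0.24 ± 0.18 (SE) between space and ground. Abcc10 lay at -0.091 without space nanoceria replicate 2 and Slc25a39 at -0.15 without ground untreated replicate 3. In the glutaredoxin and thioredoxin reductase list, Glrx3 lay at -0.33 ± 0.16 (SE) with nanoceria on ground, and the sulfiredoxin gene Srxn1, another NRF2 target, at -0.50 ± 0.35 (SE) but 0.17 without ground untreated replicate 3 and -1.17 without replicate 1. Glrx3 lay at -0.16 and -0.50 without the same arrays. Txnrd3 (mean level at percentile 32.1) and Srxn1 differed by -0.27 ± 0.12 (SE) and -0.44 ± 0.29 (SE) between space and ground. That of Srxn1 was -0.19 without space untreated replicate 1 and -0.20 without ground untreated replicate 3. Of these 17 genes 1 (Slc25a10) had an unadjusted p below 0.05 with nanoceria on ground, in the higher direction (4.42% of all probe sets). For space against ground 0 had one, where 5.3% of all probe sets were higher and 4.26% lower.

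The genes most like the exchanger and the ligase subunits were found by the root mean square difference between log2 profiles over the 8 arrays, each centred on its own mean, among 15036 other genes. For Slc7a11, whose own profile varied by 0.81, they were Glmn (0.16), Pdcd10 (0.16), Akap10 (0.17) and Lnpep (0.18). For Gclc, which varied by 0.40, they were Fbxo3 (0.095), Stxbp5 (0.10), Yae1 (0.11) and Znf846 (0.11). For Gclm, which varied by 0.60, they were Spryd7 (0.23), Psmd10 (0.24), Tacc2 (0.25) and Mpc1 (0.25). The difference between Gclc and Gclm themselves was 0.52, with Gclm at rank 9701 of the genes ordered by likeness to Gclc and Gclc at rank 1573 for Gclm. Of the other members, Abcc1 was nearest to both, at 0.28 from Gclc and 0.36 from Gclm. The measure also depends on how widely each profile varied, so a far rank need not mean an unlike direction. All profiles share the same 8 arrays, and no test was made of this likeness.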

How the data were processed

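From each of 8 H9c2 samples, 30 ng of total RNA went onto a rat Clariom S Pico array. The values the authors deposited are 1 intensity per probe set and array on a linear scale (8.63 to 19506), from RMA as the submitters' processing notes name it, with version and settings not given in the sources used here. Because the plan assumed log2 values, log2 was taken here, without a pseudocount, as 0 values lay at or below 0. Probe sets were named from the platform annotation (15049 with 1 symbol, 8139 without), and all 15049 gene identifiers matched a RefSeq table. Where a symbol has several probe sets, the brightest stands for it.

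All 23188 probe sets entered the fits of limma 3.58.1 (R 4.3.3), and p-values were adjusted by Benjamini-Hochberg (threshold 0.05). The 2 contrasts over both treatments or regimes came from an additive model (5 residual degrees of freedom) and the rest from group means (4). On simulated data, 2-fold changes were recovered in 74% (space against ground), 77% (nanoceria), 31% (nanoceria on ground), 3% (nanoceria in space), 33% (space in treated cells) and 0% (interaction) of cases. The simulated noise was normal and independent between probe sets and arrays, with the spread of the group-mean fit. The additive contrasts were simulated without an interaction. No array shifted many probe sets together in it, so these shares need not hold for the measured arrays. The 9 genes, the lists and the tests were chosen with earlier results of these data known. Related genes were named by rule: the 2 with the smallest p in each list for nanoceria on ground and for space against ground; further genes named outside it are marked. Likeness was ranked for Slc7a11, Gclc and Gclm, with 4 genes each. Alternatives were 3 scalings, the brighter 66.7% of probe sets, 2 variance settings, a block for the replicate number, the mean of the within-group contrasts, and fits without 1 array. Ground untreated replicate 2 was not analysed here.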

Additional observations from a re-analysis of the deposited data

Results flagged for a closer look

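For 3 genes the nanoceria difference ran one way in every ground array and the other way in every space array, with the difference between regimes tested by limma's interaction over all probe sets. The interaction was 1.62 for Gclm (95% interval 0.18 to 3.06), -1.30 for Cth (-2.00 to -0.59) and 1.13 for Csad (0.50 to 1.77), each with adjusted p = 1. The groups held at most 3 arrays, too few for the check for a single outlying sample. In all 3 genes the direction in space rests on the 1 untreated space array.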

How the results depend on the processing

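No setting made any of the 9 genes pass limma's adjusted threshold in any of the 6 comparisons. Over all probe sets, the count for space against ground was 0 as fitted, 1 with an intensity-dependent prior variance, 4 with array weights, and 0 to 1 over the fits that left out 1 array; for nanoceria on ground it was 0 to 167 over those fits, with 167 without ground untreated replicate 1, which leaves replicate 3 as the only untreated ground array. Of 653 gene values under the other settings, 648 kept their sign and their side of the threshold. The 5 that turned sign were small: for space against ground, Gsr was 0.049 with the replicate number as a block and Cth 0.040 as the mean of the within-group contrasts; for nanoceria over both regimes, Csad was 0.10 with array weights and 0.0027 as that mean; for nanoceria in space, Gsr was -0.049 with the block. The cause of these turns was not tested. Same-numbered arrays did not deviate together from their group means (r over probe sets from -0.35 to -0.013), so the numbers were not taken to pair the samples, and the block changed no call of the 9 genes. Leaving out 1 array turned the sign of 22 of 670 gene values. Those genes had these ranges over the fits with 1 array left out. For space against ground over both treatments, the ranges were Gclm from -0.46 to 0.35, Gsr from -0.23 to 0.061, Abcc1 from -0.18 to 0.055, Cth from -0.61 to 0.077. For nanoceria over both regimes, the ranges were Gsr from -0.36 to 0.093, Csad from -0.56 to 0.021. For nanoceria on ground, the ranges were Gss from -0.46 to 0.63, Myc from -0.052 to 1.59, Gsr from -0.73 to 0.13, Srxn1 from -1.17 to 0.17. For nanoceria in space, the ranges were Cbs from -0.018 to 0.28, Gsr from -0.13 to 0.24. For space against ground in treated cells, the ranges were Gsr from -0.15 to 0.23, Abcc1 from -0.014 to 0.10. For the interaction, the ranges were Gss from -0.11 to 0.99, Gsr from -0.072 to 0.78, Slc7a11 from -0.13 to 0.80. The median of the 9 on ground was -0.19 without ground untreated replicate 3. Cbs was not among the brighter probe sets and has no value there, and leaving out the only untreated space array gives no value for nanoceria in space or for the interaction. No scaling moved the median of all probe sets by over 0.1, and for space against ground the share of all probe sets above 0 was 41.3% as deposited, 49.2% with cyclic loess, 38.3% with equal medians and 43.6% with quantile normalization.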

Other observations

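The extremes of the 9 genes were not spread evenly over the arrays. Ground untreated replicate 3 held 5 of the 9 highest and 1 of the 9 lowest values, ground nanoceria replicate 3 held 1 highest (Cbs) and 3 lowest (Slc7a11, Gclm and Abcc1), and ground nanoceria replicate 1 held 2 highest (Gss and Cth) and 1 lowest (Gclc). In space, the untreated array held 1 highest (Slc7a11) and 2 lowest (Gss and Csad), and the treated arrays held 0 highest and 1 lowest each (Gsr in replicate 1 and Cbs in replicate 2). Ground untreated replicate 1 and ground nanoceria replicate 2 held 0 of either. Across the 8 arrays Slc7a11 covered the widest range, 4.94 to 7.72, and Cbs the narrowest, 5.10 to 5.80.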
